A study of Mus musculus with 36 samples.

Results

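The small and inducible heat shock proteins were examined in cultured mouse astrocytes given corticosterone, the main glucocorticoid of mice, with or without RU486. RU486 (mifepristone) blocks the receptor for glucocorticoids. The set held 9 genes: the small heat shock proteins Hspb1 (HSP27), Cryab, Hspb8 and Hspb6, the HSP70 genes Hspa1a, Hspa1b and Hspa8, the cochaperone Dnajb1 and the transcription factor Hsf1. Its members were all probes that the deposited probe table names by one of these symbols, which gave 17 of the 45281 probes on the array and 9 of its 30869 gene symbols. Of these, 13 probes from all 9 genes exceeded the array median on 3 or more arrays and were tested. Of the other 4, 1 each belonged to Hspb1, Hspa1a, Hspa1b and Hsf1, and none was called when the filter was dropped, with a lowest adjusted p of 0.0922 in limma.

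Small heat shock proteins form large oligomers that hold unfolding proteins in a soluble state, and several of them are abundant in astrocytes. HSP70 proteins use ATP to refold such clients, helped by HSP40 cochaperones such as Dnajb1. HSF1 switches on the inducible members of both families after heat or other stress by binding inverted repeats of nGAAn in their promoters, the heat shock element. The glucocorticoid receptor, which waits in the cytoplasm in a complex with HSP90 and HSP70, moves to the nucleus when it binds corticosterone.

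Messenger RNA was measured on Illumina bead arrays, 1 sample per array. The cultures were grown from the brains of P0-P2 mouse pups of the strain given as C57B/6 and were treated when about confluent in serum-containing medium. There were 12 groups of 3 arrays: vehicle, 100 nM corticosterone, 500 nM RU486, and both compounds together, each for 2, 4 and 6 h. The samples are called cortical, while the growth protocol names cortex or hippocampus, and nothing says that replicates came from separate cultures. The p-values thus cover the spread among these 36 arrays alone, part of which may be technical.

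Vehicle 6 h replicate 1 and both compounds 6 h replicate 3 stood apart from the other arrays. Their median correlations with the rest were 0.727 and 0.858, against 0.952 to 0.989 for the other 34, and 8.67% and 4.56% of probes lay more than 2 log2 units below the median of the other arrays. Results that rest on them are given with and without these 2 arrays. Of 12 astrocyte markers, 9 including Gfap and Aqp4 were above the array median on every array, while S100b was so on 1 array. Snap25 of neurons, Itgam of microglia and Mog of oligodendrocytes were above it on no array, and no endothelial marker was above it on every array. Acta2, Tagln and Pdgfrb of smooth muscle and pericytes were above it on every array. In RNA from a whole culture, fewer cells of a type and less RNA per cell cannot be told apart.

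Of the 9 genes, 6 had promoter sequences in the RefSeq table used here, 8 promoters in all. The 250 bases before the transcription start are shown for the 4 members whose probes were called in a comparison of corticosterone with vehicle, 5′ to 3′ on the gene's strand, from RefSeq assembly GRCm38.p6. Hspb1 lies at chr5:135887669-135887918 on the plus strand, Hspb8 at chr5:116422865-116423114 on the minus strand, Hspa1a at chr17:34972157-34972406 and Hspa1b at chr17:34959239-34959488, both on the minus strand. Capitals mark GAANNTTC, a pair of heat shock units facing each other, or TGTTCT, one arm of the sequence that the glucocorticoid receptor binds.
Hspb1: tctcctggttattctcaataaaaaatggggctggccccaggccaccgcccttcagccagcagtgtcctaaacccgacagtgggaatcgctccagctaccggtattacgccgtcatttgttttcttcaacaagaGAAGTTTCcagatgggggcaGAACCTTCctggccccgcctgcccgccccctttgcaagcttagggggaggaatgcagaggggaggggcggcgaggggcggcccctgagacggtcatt
Hspb8: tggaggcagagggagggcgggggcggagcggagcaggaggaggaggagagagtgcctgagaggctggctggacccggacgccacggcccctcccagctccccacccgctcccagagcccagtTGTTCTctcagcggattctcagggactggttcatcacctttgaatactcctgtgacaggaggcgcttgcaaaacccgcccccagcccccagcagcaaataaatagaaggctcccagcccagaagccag
Hspa1a: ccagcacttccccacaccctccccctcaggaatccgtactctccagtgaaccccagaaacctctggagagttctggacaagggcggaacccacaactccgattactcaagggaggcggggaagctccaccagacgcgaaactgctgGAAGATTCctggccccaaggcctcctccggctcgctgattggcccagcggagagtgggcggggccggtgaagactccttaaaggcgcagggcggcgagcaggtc
Hspa1b: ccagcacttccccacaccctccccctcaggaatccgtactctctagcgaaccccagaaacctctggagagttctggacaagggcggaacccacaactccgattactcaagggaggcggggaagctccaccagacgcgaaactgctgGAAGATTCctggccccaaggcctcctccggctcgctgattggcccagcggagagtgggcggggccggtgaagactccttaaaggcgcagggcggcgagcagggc
The Hspb1 promoter held GAANNTTC at 2 places, the first from base 117 to base 110 and the second from base 97 to base 90 before the start. Hspa1a and Hspa1b each held it once, from base 104 to base 97, and the second of the Hspb6 promoters, not printed, held it from base 120 to base 113. The motif, which reads the same on both strands, was present in 6.69% of 32851 RefSeq mouse promoters of the same length. Hspb8 had TGTTCT from base 128 to base 123, and 1 of the 2 Dnajb1 promoters had it on the other strand from base 113 to base 108. That Dnajb1 window, chr8:83608298-83608547 on the plus strand, lies downstream of the gene's other listed start, so the match is inside the gene as counted from there. TGTTCT on either strand was present in 16.1% of all promoters. No member's window held the opposite arrangement TTCNNGAA, found in 7.17% of all promoters. None held GAANNTTC followed by NNGAA on either strand, which is 3 alternating units and was found in 0.466%, or AGAACA and TGTTCT set 3 bases apart, the full receptor palindrome, found in 0.00913%. The Hspa1a and Hspa1b windows were the same at 247 of 250 bases (98.8%), and these genes lie beside each other on chromosome 17 with no gene between them. The array's probe sequences were not used here, so signal from one of these genes on a probe of the other cannot be set apart.

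Averaged over the 3 times, corticosterone raised 3 of the 13 member probes and lowered none, while 1.27% of the 28397 probes tested rose. The 3 were Hspb1, the brighter probe of Hspb8 and the brightest probe of Hspa1a. The median difference of the 13 probes was 0.29 on the log2 scale with all arrays and 0.04 without the 2 arrays that stand apart, and that of all probes was -0.02 and -0.00. At single times 0 members were called at 2 h, 2 at 4 h and 3 at 6 h, all of them higher, where limma called 0.102% of all probes in either direction at 2 h and 0.408% and 0.637% higher at 4 and 6 h. At 2 h, 2 member probes had an unadjusted limma p under 0.05, as did 1225 of all 28397 probes. Without the 2 arrays that stand apart, 5 of the 13 probes were called for the mean of the times, 4 higher and 1 lower, where 10.9% of all probes were called. All differences below are log2 differences of the deposited intensities, and adjusted p-values are limma's over all 28397 probes. No background was subtracted here and none is stated for the deposited values, so differences of dim probes may be understated.

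Hspb1, a small heat shock protein known for binding unfolded proteins and actin, had the largest mean difference with corticosterone among the members. At 2 h the vehicle arrays read 9.84, 9.41 and 9.23 on the log2 scale and the corticosterone arrays 11.15, 10.47 and 10.64. At 4 h vehicle read 10.16, 9.93 and 9.73 and corticosterone 11.38, 11.13 and 11.25. At 6 h vehicle read 9.64, 10.35 and 10.08 and corticosterone 11.83, 11.59 and 11.78. At each time every corticosterone array lay above every vehicle array. The difference was 1.26 at 2 h (SE 0.26, adjusted p = 0.053), 1.31 at 4 h (SE 0.26, adjusted p = 0.0112) and 1.71 at 6 h (SE 0.26, adjusted p = 0.000341). Averaged over the times Hspb1 rose by 1.43 (SE 0.15, adjusted p = 4.29e-07), a 2.69-fold rise. Leaving out any single array kept the call for the mean and that for 6 h. At 4 h the call was lost without corticosterone replicate 1 or 3 or vehicle replicate 2 or 3, with adjusted p-values of 0.0506 to 0.111 and differences of 1.20 to 1.31. Without the 2 arrays that stand apart, 1 of which is a vehicle array at 6 h, the 6 h difference was 1.52 (adjusted p = 0.00189) and the 2 h difference passed the threshold (adjusted p = 0.0122), the only member call at 2 h, where 0.342% of all probes were then called higher.

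The effect of corticosterone on Hspb1 was not shown to grow with time. It was larger at 6 h than at 2 h by 0.45 (SE 0.37, adjusted p = 0.601). Over the 13 member probes limma called no difference between times with all arrays at equal weight. Among all probes 0.0563% differed between 6 and 2 h, 0.00704% between 4 and 2 h and 0% between 6 and 4 h. The unadjusted limma p was under 0.05 for 1, 1 and 5 member probes in these comparisons, and for 1771, 575 and 1932 of all 28397 probes. Smooth muscle and pericyte markers at 4 h had a summed intensity of 38380.6 to 39568.4 on vehicle arrays and 32853.8 to 36502.5 on corticosterone arrays, and neuron markers 9446.1 to 10440.3 and 7282.2 to 8479.3. Oligodendrocyte markers ran from 3160.2 to 3712.9 and from 3839.8 to 4116. These sums are of linear intensities, so the brightest genes of a list weigh most. Acta2 had a mean log2 intensity of 15.1, with Tagln next at 12.1. In the neuron list Map2 and Stmn2 had 12.1 and 11.7, with Syn1 next at 8.66. With all arrays, the ranges at 2 and 6 h overlapped for smooth muscle markers. For neuron markers they overlapped at 2 h, while at 6 h they ran from 8504.7 to 11456.3 on vehicle and from 7831 to 8328.8 on corticosterone arrays. The 11456.3 was that of vehicle replicate 1, which stands apart, and without it the 6 h neuron ranges still did not overlap. The part of these shifts in the member results was not tested.

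With RU486 added to corticosterone, Hspb1 was lower than with corticosterone alone. With both compounds the arrays read 9.29, 9.25 and 9.32 at 2 h, 10.05, 9.92 and 10.37 at 4 h, and 10.58, 10.43 and 10.47 at 6 h. At every time these arrays lay below every array with corticosterone alone. Against vehicle they overlapped at 2 and 4 h and lay above it at 6 h (difference 0.47, adjusted p = 0.497). Against corticosterone alone, Hspb1 fell by 1.47 at 2 h (SE 0.26, adjusted p = 0.00588), by 1.14 at 4 h (SE 0.26, adjusted p = 0.0192), by 1.24 at 6 h (SE 0.26, adjusted p = 0.0125) and by 1.28 averaged over the times (SE 0.15, adjusted p = 1.91e-06). The call at 4 h was lost without corticosterone replicate 1 or 3 or both compounds replicate 1 or 2 (adjusted p of 0.0641 to 0.108, differences of -1.14 to -1.04). The call at 6 h was lost without corticosterone replicate 1 or both compounds replicate 3 (adjusted p of 0.0882 and 0.0508, differences of -1.20 and -1.23). These comparisons share the corticosterone arrays with those against vehicle. Against vehicle, both compounds together gave a mean difference of 0.14 (SE 0.15, adjusted p = 0.723).

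Summed marker levels also differed between both compounds and corticosterone alone. Neuron markers ran from 7536.8 to 8195.8 with corticosterone and from 8249 to 9460.8 with both at 2 h, from 7282.2 to 8479.3 and from 9465.4 to 10059.6 at 4 h, and from 7831 to 8328.8 and from 9647.6 to 14137.6 at 6 h, with no overlap. Astrocyte markers ran from 81457.3 to 98804.3 with corticosterone and from 99461.2 to 118718 with both at 2 h, and from 71888.3 to 93591.5 and from 100591 to 107407 at 4 h. Microglia markers were apart at 2 h (1871.2 to 2475.2 against 2825.5 to 3042) and 6 h (1575.9 to 2251.5 against 2287.3 to 2370.5), and smooth muscle markers at 4 h, where both compounds gave 37838.4 to 40292.1. The 14137.6 of neuron markers and the 2287.3 of microglia markers came from both compounds 6 h replicate 3, which stands apart. Without that array the 6 h ranges of these markers still did not overlap. Each of these marker sums was higher with both compounds. Their part in the Hspb1 and Hspb8 results was not tested.

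With RU486 alone, the Hspb1 group means lay between those of vehicle and corticosterone. Its arrays read 11.14, 9.85 and 9.68 at 2 h, 10.73, 10.28 and 10.13 at 4 h, and 10.44, 10.23 and 10.90 at 6 h. Replicate 1 at 2 h was within the range of the corticosterone arrays, and at each time the RU486 range overlapped that of vehicle. The mean difference from vehicle was 0.56 (SE 0.15, adjusted p = 0.186), which did not pass with all arrays at equal weight. Array weights called it higher, as given with that fit. The interaction, which is the corticosterone difference in the presence of RU486 less that in its absence, was -1.84 for the mean of the times (SE 0.22, adjusted p = 4.12e-06), and leaving out any single array kept the call. Ordered by group mean, the 3 corticosterone groups came first, from 6 h to 2 h, and the lowest 3 were vehicle at 4 h, vehicle at 2 h and both compounds at 2 h. Of the 11 pairs of neighbours in that order, only corticosterone at 6 h and at 4 h did not overlap.

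**Figure D1:**
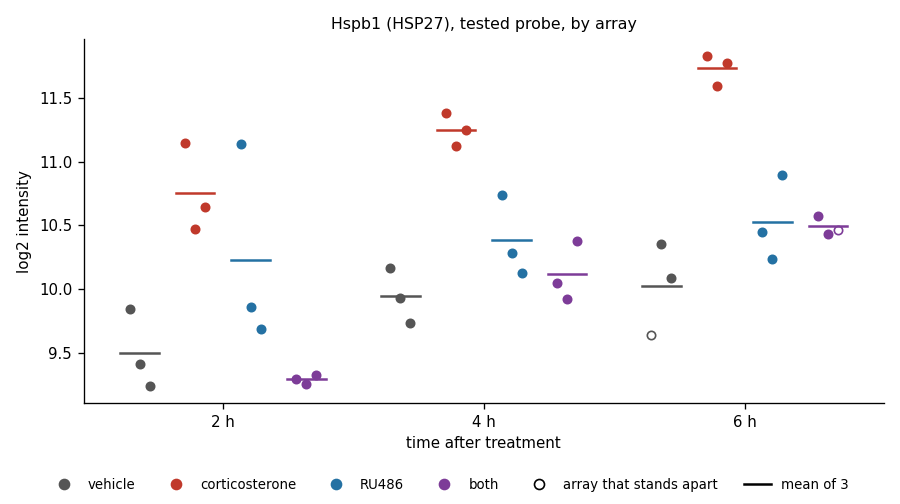
Log2 intensity of the tested Hspb1 probe on each array, by time and treatment, with 3 arrays per group, a line at each group's mean and open symbols for the 2 arrays that stand apart. Every corticosterone array (10.47 to 11.83) lay above the vehicle arrays and the arrays with both compounds of the same time, and RU486 replicate 1 at 2 h (11.14) lay among the corticosterone arrays.

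Hspb8, a small heat shock protein that works with the cochaperone BAG3 in selective autophagy, changed by smaller amounts. At 6 h its brighter probe read 14.21, 14.51 and 14.42 on vehicle arrays, 14.87, 14.74 and 14.71 on corticosterone arrays and 14.33, 14.32 and 14.46 on arrays with both compounds. At 2 h the corticosterone arrays read 14.72, 14.39 and 14.64 and those with both compounds 14.18, 14.09 and 13.95. The corticosterone arrays lay above those with both compounds at each time. Against vehicle the corticosterone arrays lay above at 4 and 6 h and overlapped at 2 h. The arrays with both compounds lay below every vehicle array at 2 h (14.33 to 14.41) and overlapped vehicle at 6 h. For both compounds against vehicle at 2 h, limma with all arrays called 0 members and 0 of all 28397 probes. Corticosterone raised this probe by 0.29 averaged over the times (SE 0.05, adjusted p = 0.0017), and both compounds lowered it against corticosterone alone by 0.42 (an adjusted p of 6.36e-06, SE 0.05). The interaction was -0.50 (SE 0.08, adjusted p = 0.000152), and these 3 mean calls were kept whichever array was left out.

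At single times the Hspb8 calls were less stable. The 6 h rise of 0.39 over vehicle (SE 0.09, adjusted p = 0.0337) was lost without vehicle replicate 1, which is one of the arrays that stand apart (0.31, adjusted p = 0.241), without any 1 of the 3 corticosterone arrays (adjusted p of 0.0678 to 0.241) and without both arrays that stand apart (0.31, adjusted p = 0.132). Against corticosterone alone, both compounds gave -0.51 at 2 h (SE 0.09, adjusted p = 0.0063), lost without corticosterone replicate 3 or both compounds replicate 3 (adjusted p of 0.0592 and 0.0699). The difference was -0.33 at 4 h (adjusted p = 0.0544, and 0.0075 without the 2 arrays) and -0.41 at 6 h (adjusted p = 0.0217). The 6 h call was lost without corticosterone replicate 1 or 2 or both compounds replicate 1 or 2 (adjusted p of 0.0595 to 0.196). With background correction by normexp, both 6 h calls of this probe were lost (adjusted p = 0.145 against vehicle and 0.108 against corticosterone). The other Hspb8 probe did not follow the brighter one. It read 13.15, 13.15 and 13.26 on vehicle arrays at 4 h and 12.62, 12.85 and 12.88 on corticosterone arrays, all lower, a difference of -0.40 (adjusted p = 1, and 0.0371 without the 2 arrays). At 6 h its difference from vehicle was 1.33 with all arrays and 0.11 without the 2 arrays, since vehicle replicate 1 read 9.41 against 12.92 and 13.19. Over the 12 group means the correlation of the 2 Hspb8 probes was -0.08, and -0.49 without the 2 arrays, so the rise of Hspb8 rests on 1 probe.

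Cryab, the alpha B crystallin, and Hspb6 (HSP20) are the other small heat shock proteins of the set. Cryab had readings of 11.75 to 12.26 on vehicle arrays at 2 h and 12.18 to 12.52 at 4 h. Corticosterone arrays read 11.98 to 12.09 and 12.35 to 12.76 at those times, and the ranges overlapped. Its mean difference from vehicle was 0.37 (SE 0.21, adjusted p = 0.427) with all arrays and 0.08 without the 2 arrays (adjusted p = 0.579). At 6 h the difference of 0.84 turned to -0.02 without them, because vehicle replicate 1 read 10.06 where the other vehicle arrays read 12.65 and 12.62. Both compounds against corticosterone gave a mean of -0.12 (SE 0.21, adjusted p = 0.836). Within vehicle, Cryab at 6 h was lower than at 2 h by 0.19 with all arrays (adjusted p = 0.697), while the 2 arrays left out turned the difference to 0.66 (adjusted p = 0.00258).

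Hspb6 read 12.84, 12.61 and 12.49 on vehicle arrays at 4 h, 12.98, 12.91 and 13.04 on corticosterone arrays and 12.52, 12.49 and 12.70 with both compounds. At that time the corticosterone arrays lay above both other groups. At 2 h RU486 alone gave the highest readings, 13.63, 13.44 and 13.39, against 13.03, 12.87 and 12.81 on vehicle. The mean corticosterone difference was 0.19 (SE 0.08, adjusted p = 0.257, and 0.24 with adjusted p = 0.0396 without the 2 arrays). Both compounds against corticosterone gave -0.23 (SE 0.08, adjusted p = 0.0668, and -0.26 with adjusted p = 0.00903 without the 2 arrays). The interaction of Hspb6 was called with all arrays, at -0.47 (SE 0.11, adjusted p = 0.0147), and whichever array was left out. The RU486 difference at 2 h was 0.59 (SE 0.14, adjusted p = 0.273). It passed without the 2 arrays (adjusted p = 0.0176), as did that of Hspa1a described next, and these were 2 of the 13 member probes where 1.52% of all probes were called higher.

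Hspa1a encodes the stress-inducible HSP70. Its brightest probe read 7.54, 8.08 and 8.15 on vehicle arrays at 2 h and 8.16, 7.96 and 7.94 with corticosterone. At 4 h vehicle read 7.65, 7.51 and 7.57 and corticosterone 7.83, 8.07 and 8.01. At 6 h vehicle read 6.68, 7.41 and 7.53 and corticosterone 8.21, 8.16 and 8.40. The groups overlapped at 2 h and did not at 4 and 6 h. The difference was 0.10 at 2 h (SE 0.19, adjusted p = 1), 0.39 at 4 h (SE 0.19, adjusted p = 0.531), 1.05 at 6 h (SE 0.19, adjusted p = 0.00277) and 0.51 averaged over the times (SE 0.11, adjusted p = 0.00719). Leaving out the 2 arrays gave a 6 h difference of 0.79 (adjusted p = 0.0142), and Hspa1a and Hspb1 were the 2 members called there, where 0.961% of all probes were called higher. The 6 h effect was larger than that at 2 h by 0.95 (SE 0.27, adjusted p = 0.598), so a difference between the times was not shown with equal weights. Array weights called the 6 h effect of Hspa1a larger, the only member called there, where 0.472% of all probes were called.

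Adding RU486 to corticosterone gave no called change in Hspa1a with all arrays at equal weight, while array weights called it lower at 6 h. With both compounds the readings were 8.12, 8.35 and 8.32 at 2 h, 7.82, 7.91 and 7.90 at 4 h, and 7.95, 7.89 and 8.16 at 6 h. At 4 and 6 h they lay above every vehicle array, and against corticosterone alone they overlapped at 2 and 4 h and lay lower at 6 h (difference -0.26, adjusted p = 0.635). The mean difference of both compounds from corticosterone was -0.04 (SE 0.11, adjusted p = 0.92). Against vehicle, both compounds raised Hspa1a by 0.48 (SE 0.11, adjusted p = 0.0487), and it was the single member called in that comparison, in which 0.335% of all probes were called higher. That call was lost for 12 of the 18 arrays when each was left out in turn, with adjusted p-values of 0.0501 to 0.14. RU486 alone read 8.95, 8.44 and 8.20 at 2 h, 7.92, 7.87 and 7.89 at 4 h, and 7.35, 7.27 and 7.90 at 6 h. Its arrays lay above vehicle at 2 and 4 h and overlapped it at 6 h, where vehicle replicate 1 was the lowest of all. The mean difference of RU486 from vehicle was 0.41 (SE 0.11, adjusted p = 0.185). Array weights called that mean difference higher, as given with that fit. The 2 h difference was 0.61 (SE 0.19, adjusted p = 0.401, and 0.0382 without the 2 arrays). The interaction was -0.44 (SE 0.16, adjusted p = 0.106, and -0.38 with adjusted p = 0.0478 without the 2 arrays). A dimmer Hspa1a probe, above the array median on only 4 arrays, read 6.52 to 6.93 on all arrays, was called in none of the comparisons with vehicle or with corticosterone averaged over the times, and differed from vehicle by a mean of -0.12 (adjusted p = 0.287).

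Hspa1b encodes a nearly identical HSP70. At 4 h vehicle read 6.99, 6.74 and 6.84, corticosterone 7.82, 7.83 and 7.78, RU486 7.23, 7.32 and 7.16, and both compounds 7.19, 6.99 and 7.29. The corticosterone arrays lay above all others at that time. At 6 h corticosterone read 7.31, 7.39 and 7.41, which overlapped the vehicle arrays, and RU486 alone gave the highest readings, 8.22, 7.93 and 7.46. The corticosterone difference was -0.04 at 2 h, 0.95 at 4 h (SE 0.22, adjusted p = 0.0369) and 0.15 at 6 h. The 4 h call was lost without any 1 of the 6 arrays compared (adjusted p of 0.0697 to 0.206, differences of 0.89 to 1.02), with no filter on dim probes (adjusted p = 0.0507) and with background correction (adjusted p = 0.0766). Both compounds against corticosterone at 4 h gave -0.65 (SE 0.22, adjusted p = 0.131, and 0.0355 without the 2 arrays). The interaction over the times was -0.66 (SE 0.18, adjusted p = 0.0301), a call lost for 6 of the 36 arrays left out in turn (adjusted p of 0.0504 to 0.0593). Over the 12 group means Hspa1a and Hspa1b had a correlation of -0.24 (-0.32 without the 2 arrays).

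**Figure D2:**
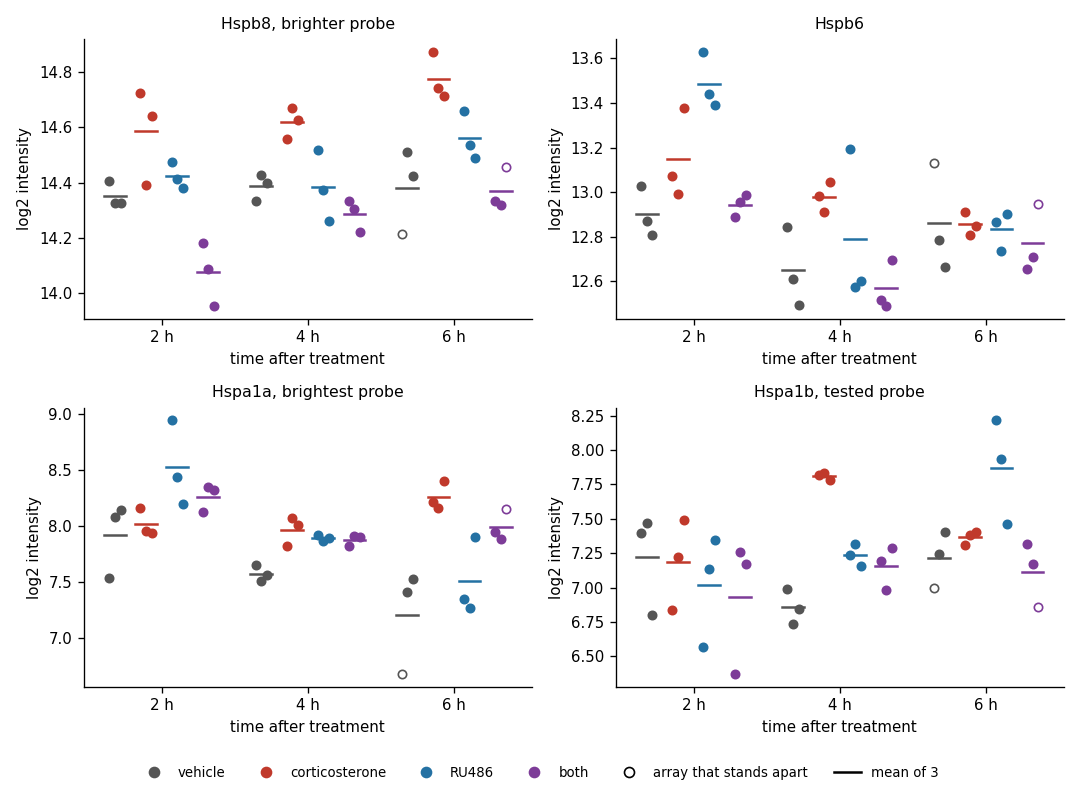
Log2 intensity by array of the brighter Hspb8 probe, Hspb6, the brightest Hspa1a probe and the tested Hspa1b probe, by time and treatment, each panel on its own scale, with 3 arrays per group, lines at group means and open symbols for the 2 arrays that stand apart. Corticosterone arrays were highest for Hspb8 at 6 h (14.71 to 14.87), while for Hspa1b the 4 h corticosterone arrays (7.78 to 7.83) were above all others of that time and RU486 at 6 h had the highest group mean (7.87).

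Hspa8 encodes the constitutive HSP70, HSC70, which also uncoats clathrin vesicles, and 3 of its probes were tested. Its probe ILMN_2918479 read 13.48 and 13.54 on the other vehicle arrays at 6 h and 6.39 on vehicle replicate 1. With both compounds at 6 h it read 13.36 and 13.16 and 6.24 on replicate 3. On these 2 arrays the probe lay below the array median, 7.12 and 7.02 log2 units under the mean of the other arrays of the group. It also read 8.77 on RU486 2 h replicate 1 against 12.03 and 13.06. The other Hspa8 probes dropped less on vehicle 6 h replicate 1, with differences of -1.85 for ILMN_1246458 and -2.07 for ILMN_1249586 from the mean of the other vehicle arrays. No difference between treatments was called for Hspa8 with all arrays at equal weight. Array weights gave calls, of which only those in the comparisons reported there are listed with that fit.

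With the 2 arrays left out, 2 Hspa8 probes were called in the direction opposite to Hspb1. At 4 h ILMN_1246458 read 14.21, 14.33 and 14.28 on vehicle arrays, 13.81, 14.10 and 14.07 with corticosterone and 14.37, 14.27 and 14.38 with both compounds. None of these 9 arrays is among the 2, and the corticosterone arrays lay below both other groups. Averaged over the times, its corticosterone difference was -0.00 with all arrays (SE 0.15, adjusted p = 0.995) and -0.21 without the 2 arrays (adjusted p = 0.0102). Both compounds against corticosterone gave 0.19 (adjusted p = 0.542) and, without the 2 arrays, 0.23 (adjusted p = 0.0014). ILMN_1249586 read 13.02, 13.25 and 13.33 with corticosterone at 4 h and 14.15, 13.97 and 14.05 with both compounds, a difference of 0.86 (SE 0.37, adjusted p = 0.3, and 0.0139 without the 2 arrays). Its mean difference of both compounds from corticosterone was 0.40 (adjusted p = 0.294, and 0.49 with adjusted p = 0.0103 without the 2 arrays). ILMN_2918479 overlapped between these groups at 4 h and had a difference of 0.11 (SE 1.44). Its 4 h mean was 13.31 with corticosterone and 12.625 on vehicle, the reverse of the order of ILMN_1246458. That difference was not called with all arrays at equal weight.

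**Figure D3:**
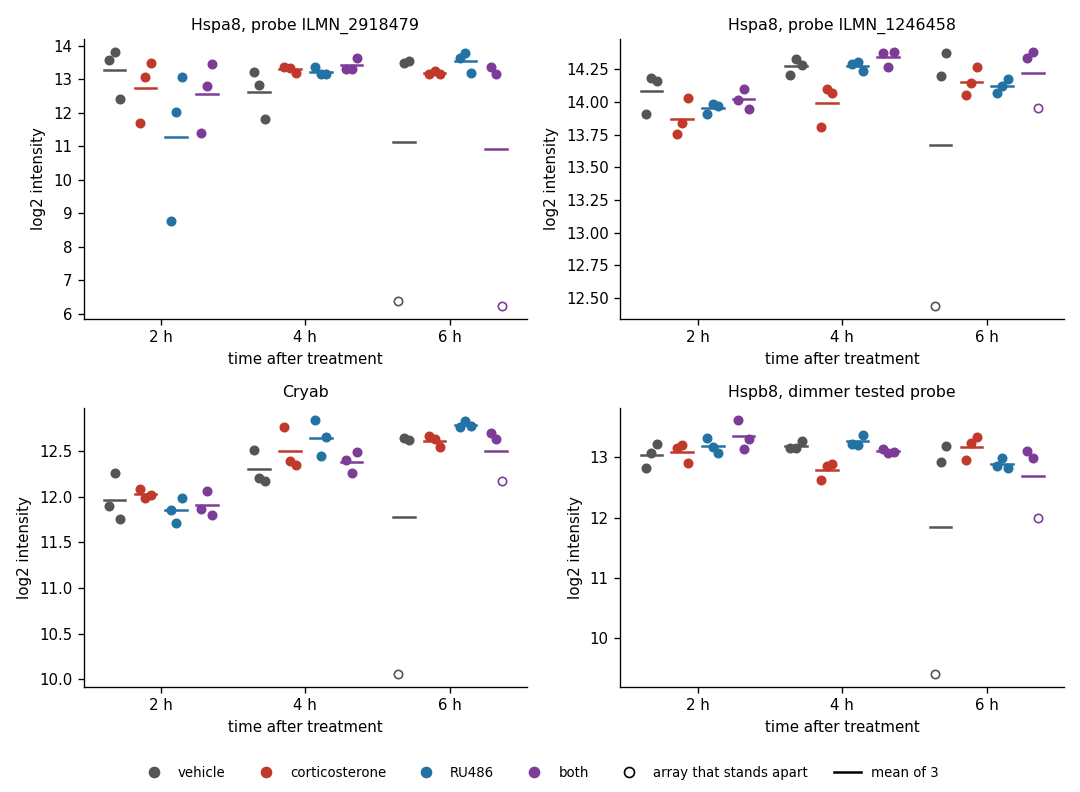
Log2 intensity by array of 2 Hspa8 probes, Cryab and the dimmer tested Hspb8 probe, by time and treatment, each panel on its own scale, with lines at group means and open symbols for the 2 arrays that stand apart. Vehicle 6 h replicate 1 is the lowest array for Cryab (10.06) and Hspb8 (9.41), and for Hspa8 probe ILMN_2918479 both open symbols lie under 7 (6.39 and 6.24).

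Hsf1, the transcription factor of the heat shock response, read 11.45 to 11.83 on vehicle arrays at 2 h, 11.30 to 11.52 at 4 h and 11.40 to 11.82 at 6 h. With corticosterone it read 11.61 to 11.70, 11.27 to 11.40 and 11.31 to 11.61, and the ranges overlapped at each time. The mean difference was -0.09 (SE 0.09, adjusted p = 0.653), and both compounds against corticosterone gave -0.08 (SE 0.09, adjusted p = 0.7). Dnajb1, an HSP40 that stimulates HSP70, read 11.44, 11.34 and 11.47 on vehicle arrays at 4 h and 11.58, 11.63 and 11.69 with corticosterone. The groups did not overlap there, but the difference was 0.22 (SE 0.13, adjusted p = 0.67), and at 2 h vehicle ran from 11.51 to 12.29 and corticosterone from 11.75 to 11.85. Averaged over the times, the corticosterone difference of Dnajb1 was 0.05 (SE 0.07, adjusted p = 0.75) and that of both compounds against corticosterone -0.17 (SE 0.07, adjusted p = 0.155). Neither gene was called in a contrast between treatments with all arrays at equal weight. Array weights gave calls for both, of which only those in the comparisons reported there are listed with that fit.

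Across the members, both compounds against corticosterone lowered 2 of the 13 probes at 2 h, 1 at 4 h, 2 at 6 h and 2 for the mean of the times, and raised none. All of these were Hspb1 or the brighter Hspb8 probe. Among all probes 0.257%, 1.13%, 0.504% and 4.25% were called lower in these comparisons. The median of the 13 mean differences was -0.12 with all arrays and -0.06 without the 2 arrays, and that of all probes 0.00 and -0.01. The interaction was called for 4 member probes, all negative, those of Hspb1, Hspb8, Hspb6 and Hspa1b, where 2.2% of all probes had a negative call. With all arrays at equal weight, RU486 against vehicle gave 0 called members over the times by limma, where 0.0458% of all probes were called. In that comparison the unadjusted limma p was under 0.05 for 5 members and for 2880 of all 28397 probes. Leaving out the 2 arrays, limma called 6 members for both compounds against corticosterone at 4 h (4 lower, 2 higher; 15% of all probes), 6 for its mean (4 lower, 2 higher; 27.4%) and 6 for the interaction (5 negative, 1 positive; 18%). At 4 h corticosterone against vehicle then called 4 members, 2 higher and 2 lower, where 8.12% of all probes were called.

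**Figure D4:**
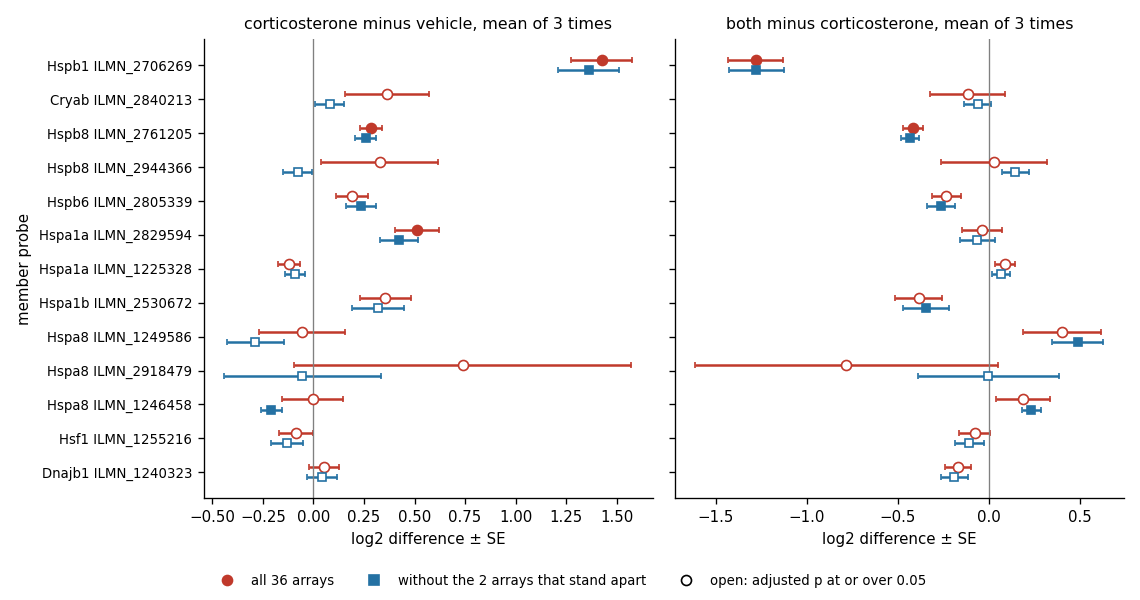
Log2 differences averaged over the 3 times, with SE, of the 13 tested member probes for corticosterone against vehicle (left) and both compounds against corticosterone (right), with all 36 arrays and without the 2 that stand apart; filled symbols are called. Hspb1 stands out on both sides (1.43 and -1.28), and the widest bars are those of Hspa8 probe ILMN_2918479.

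Array weights, which keep all 36 arrays and weight each by its own noise, gave more calls over all probes in the comparisons listed here. With them, the shares of all probes called for corticosterone against vehicle were 0.556% at 2 h, 34.7% at 4 h, 8.04% at 6 h and 25.5% for the mean, and 1, 10, 4 and 7 member probes were called. For both compounds against corticosterone the shares were 40.9% at 4 h, 29.9% at 6 h and 45.2% for the mean, with 8, 6 and 7 member probes. They were 11.8% for RU486 against vehicle with 4 members, 21.4% for both compounds against vehicle with 3, and 36.4% for the interaction with 9. The 4 for RU486 were Hspb1, Hspb6, Hspa1a and Hspa1b, all higher than vehicle. The 3 for both compounds were Hspa1a, Hspb8 and Hsf1, 1 higher and 2 lower. For the corticosterone effect, 0.472% of probes and 1 member differed between 6 and 2 h, and 5.84% and 4 members between 6 and 4 h. The 1 member was Hspa1a, with the larger effect at 6 h. The 4 were Dnajb1, Hsf1, Hspa1b and Hspb8, with a positive difference for 1 and a negative one for 3. Among the members called with weights were genes not called without them. Hspa8 was called for corticosterone against vehicle at 4 h and for the mean, for both compounds against corticosterone at 4 h, 6 h and the mean, and for the interaction. Dnajb1 was called for corticosterone against vehicle at 4 h, for both compounds against corticosterone at 4 h, 6 h and the mean, and for the interaction, and Hsf1 for corticosterone against vehicle at 6 h and for the mean of both compounds against vehicle.

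The vehicle groups were also compared over time. Limma's F test over the 3 vehicle groups called 2 of the 13 probes, those of Hspa1a and Hspa8, where it called 10.8% of all probes. It called 2 without the 2 arrays, Cryab and Hspa8, where it called 16.6%, and with array weights it called 7, where it called 31.8%. Hspa8 probe ILMN_1249586 read 11.45, 12.56 and 12.73 at 2 h and 13.62, 13.62 and 13.76 at 4 h, a rise of 1.42 (SE 0.37, adjusted p = 0.0383). That call was lost without any 1 of the 6 arrays except vehicle 2 h replicate 3 (adjusted p of 0.0617 to 0.273, differences of 1.02 to 1.58). Hspa1a was lower at 6 h than at 2 h by 0.71 (adjusted p = 0.0146), a call lost without vehicle 2 h replicate 2 or 3 (adjusted p of 0.0597 and 0.0517), without vehicle 6 h replicate 1 (adjusted p = 0.167) or without the 2 arrays (0.45 lower, adjusted p = 0.0985). Hspb1 was higher at 6 h than at 2 h by 0.53 (SE 0.26, adjusted p = 0.139).

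The other chaperones of the pathway were read in 6 lists. Among their 65 genes (other small heat shock proteins, HSP70 and HSP110, HSP40, cochaperones, HSP90 and chaperonins, and heat shock factors with their partners), 58 were measured. Each gene was read by its brightest tested probe alone, while the shares given are over all probes tested, dim ones included. Over the times corticosterone lowered 1 of the 58 genes and raised none, where 1.24% of all probes fell. That gene was Hspd1, the mitochondrial chaperonin HSP60, at -0.30 (SE 0.08, adjusted p = 0.031), a call lost for 10 of the 18 arrays left out in turn (adjusted p of 0.0506 to 0.0987). The median of the 58 was -0.06. Without the 2 arrays the median was -0.01, and 2 rose and 11 fell, where 4.33% of all probes rose and 6.56% fell.

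Against corticosterone alone, both compounds raised 5 of the 58 and lowered 5, where 6.12% of all probes rose and 4.25% fell. The lowest was Hsph1, the HSP110 exchange factor of HSP70, at -1.03 (SE 0.18, adjusted p = 0.00026). It was followed by the mitochondrial HSP90 gene Trap1 at -0.67 (adjusted p = 0.00104) and the HSP40 gene Dnajb2 at -0.54 (adjusted p = 0.00358). Dnajc3, an inhibitor of the eIF2 alpha kinases, was at -0.49 (adjusted p = 0.0447), a call lost for 15 of the 18 arrays left out in turn (adjusted p of 0.057 to 0.0981). The highest were Trp53 at 0.77 (adjusted p = 0.0227), which encodes p53, Hsp90b1, the HSP90 of the endoplasmic reticulum, at 0.61 (adjusted p = 0.00857), Dnajc5 of synaptic vesicles at 0.58 (adjusted p = 0.0111) and Ptges3, the HSP90 cochaperone p23, at 0.36 (adjusted p = 0.0193). The Trp53 call was lost without corticosterone 2 h replicate 3 or corticosterone 6 h replicate 1 or 2 (adjusted p of 0.0504 to 0.053). The median of the 58 was 0.09. Without the 2 arrays it was 0.05, and 16 were higher and 11 lower, where 14.4% of all probes were called higher and 13% lower. For Hsph1 the corticosterone difference was 0.61 (SE 0.18, adjusted p = 0.0667, and 0.72 with adjusted p = 0.000552 without the 2 arrays).

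The genes whose 12 group means ran most like those of Hspb1 were ranked by Pearson's correlation among 9569 genes whose group means had an SD of at least 0.2. They were Tsc22d3 (GILZ) with r = 0.93, metallothionein Mt2 with 0.93, the transcription factor Klf9 with 0.92 and the folate hydrolase Folh1 with 0.91. The brighter Hspb8 probe had r = 0.91 with Hspb1, and 0.89 without the 2 arrays. Tsc22d3, Mt2 and Klf9 are known glucocorticoid-responsive genes. For Hspa1a the nearest included Tango2 (0.94), Kyat1 (0.92) and Ivd (0.91), and for Cryab Pebp1 (0.96), Calm2 (0.94), Memo1 (0.93) and Cdca5 (0.93). Without the 2 arrays, Klf9 of the Hspb1 list and Kyat1 of the Hspa1a list were again among the nearest 4, and none of the Cryab list was. The group means share arrays and times, so these correlations describe the 12 groups only.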

How the data were processed

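The authors' deposited values are linear intensities of 45281 probes on 36 arrays, quantile-normalized as judged from the values. The submitters' processing notes give GenomeStudio without a version. The background-correction state is not stated, and the lowest value is 59.6. A second deposited table was read for probe identifiers and symbols only, since its 72 per-sample columns match no label.

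Here intensities were put on the log2 scale, and 28397 probes that exceeded the array median on 3 or more arrays were fitted across all genes in limma 3.58.1 (R 4.3.3) with 12 group means, lmFit and eBayes. Errors are the fit's SE. Benjamini-Hochberg adjustment ran over all probes tested, with a threshold of 0.05. The number of arrays limits the precision, and depth does not apply. The fit was tested on simulated data with independent noise and no arrays that stand apart. That test does not cover the effect of the 2 arrays that do. Alternatives were no filter, the brightest probe per gene, normexp, the replicate number as a block, array weights, leaving out the 2 arrays that stand apart, and leaving out each array in turn.

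Named chaperone genes are at most the 4 highest and 4 lowest called for each of the 2 mean comparisons; the nearest 4 genes by correlation leave out predicted genes and clones. One gene that this rule names is not reported here. The members, the chaperone lists and the marker lists were chosen with earlier results of these data known. Replicate numbers were not used as pairs: over 198 same-numbered pairs the median correlation of deviations was 0.0356, with a range of -0.798 to 0.796. Plots were drawn with matplotlib 3.10.9.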

Additional observations from a re-analysis of the deposited data

How the results depend on the processing

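The rise of Hspb1 and of the brighter Hspb8 probe with corticosterone and their fall with both compounds, each averaged over the times, kept direction and call under all 6 alternatives and whichever array was left out, as did the mean rise of Hspa1a with corticosterone. Counts of called member probes moved more, and the cause was not tested. Without the 2 arrays that stand apart, corticosterone against vehicle gave 1 called probe at 2 h, 4 at 4 h and 5 for the mean, and both compounds against corticosterone gave 6 at 4 h and 6 for the mean. Array weights gave 1, 10 and 7 for the former, 8 at 4 h, 6 at 6 h and 7 for the mean of the latter, 4 for RU486 and 3 for both compounds against vehicle, 9 for the interaction, 7 for vehicle over time, and 1 and 4 for the corticosterone effect at 6 h less 2 h and 6 h less 4 h. With no filter, 1 was called at 4 h for corticosterone, 2 for both compounds against corticosterone at 4 h and 0 for both against vehicle. With normexp 1, 1 and 0 were called for corticosterone at 4 h, both against corticosterone at 6 h and both against vehicle. The brightest probe per gene gave 1 for corticosterone at 2 h, 2 for both against corticosterone at 4 h and 1 for vehicle over time. The replicate block, fitted although the numbers do not pair the samples, gave 1 and 2 in the first 2 of these. It raised the count for the mean of both compounds against corticosterone from 2 to 3. With the block, 29 of all 28397 probes were called for corticosterone at 2 h. For both against corticosterone, 871 were called at 4 h and 3101 for the mean. Shares of all probes are not given for no filter, normexp and the brightest probe per gene, so those counts are not results about the members.

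Leaving out 1 array gave 0 to 1 calls for corticosterone at 2 h and at 4 h, 2 to 6 at 6 h and 3 to 4 for the mean. For both compounds against corticosterone it gave 1 to 2, 0 to 1, 0 to 2 and 2 to 3 in the same order, for both against vehicle 0 to 1, for the interaction 3 to 5 and for vehicle over time 0 to 5. Shares of all probes are not given for these fits, so the counts are not results about the members. The Cryab difference of vehicle at 6 h less 2 h turned from -0.19 to 0.56 with array weights and to 0.66 without the 2 arrays, and ran from -0.63 to 0.66 when 1 array was left out. The mean of Hspa8 probe ILMN_1246458 ran from -0.21 to 0.11 for corticosterone and from -0.036 to 0.29 for the interaction. Dim probes such as those of Hspa1a and Hspa1b lie close to the array median, and their differences grew with normexp, to 1.42 for Hspa1b at 4 h.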
